A study of Mus musculus with 19 samples.

Results

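The transcripts described here are those of the nuclear genes of oxidative phosphorylation, the set of protein complexes that pass electrons to oxygen and make ATP in the inner mitochondrial membrane. Members were all genes whose symbol in the array annotation begins with Nduf, Uqcr, Cox4 to Cox8 or Atp5, or is Sdha, Sdhb, Sdhc or Sdhd. A probe set counted where it lists 1 gene, and the brightest was taken where a gene had several. This gave 89 members among the 22180 genes tested. By symbol, 34 belong to complex I, 8 are assembly factors of complex I (Ndufaf1 to Ndufaf8), 4 belong to complex II, 8 to complex III, 17 to complex IV and 18 to complex V. RefSeq lists 2 of them, Atp5c1-ps and Uqcrh-ps1, as pseudogenes. There were 9 members with more than 1 probe set. A further 10 probe sets that list a subunit gene together with another gene, such as those of Cox6c, Ndufs6, Ndufb2, Ndufb4 and Uqcr10, were left out by this rule.

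Complex I oxidizes NADH and complex II oxidizes succinate. Both hand electrons through ubiquinone to complex III, which passes them by way of cytochrome c to complex IV, where oxygen is reduced. The proton gradient built by complexes I, III and IV drives ATP synthesis by complex V. Heart muscle meets most of its energy need by this route, and in ischemia and early reperfusion the chain is a known site of succinate accumulation, reverse electron flow and oxidant production. REV-ERB alpha, the product of Nr1d1, is a nuclear receptor of the circadian clock that represses transcription at sites it shares with ROR receptors.

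Transcript levels were measured on 19 Affymetrix arrays, each with RNA of a separate isolated mouse heart. Every heart was perfused by the Langendorff method with 20 min of stabilisation, 20 min of stopped flow and 20 min of reperfusion, and was then frozen. The groups were wild-type C57Bl6J mice at ZT0 (n = 7), wild-type C57Bl6J mice at ZT12 (n = 7), and mice without Rev-erb alpha, the knockout group, also at ZT12 (n = 5), whose strain the labels do not state. ZT is the time in hours after lights on. All groups had the same ischemia and reperfusion, and the labels name no heart without ischemia and no knockout group at ZT0. The design therefore allowed 3 comparisons: time of day in the wild type, genotype at ZT12, and the knockout at ZT12 against the wild type at ZT0. They share groups and are not independent of each other.

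Nr1d1, the targeted gene, was read at 5.76 to 6.67 (median 6.12) in wild-type hearts at ZT0 and at 6.46 to 7.28 (median 6.64) at ZT12. The 5 knockout hearts were at 6.35, 6.40, 6.30, 6.36 and 6.51, which overlapped both wild-type groups. The labels do not say which exons the knockout lacks, so this probe set does not check them. Arntl, the clock activator gene that REV-ERB alpha represses, was 2.45 log2 units higher in the knockout than in the wild type at ZT12 (adjusted p = 1.24e-12). All 8 cardiomyocyte markers were measured, and their summed level was 14.47 to 14.58 in the 19 hearts. The sum is weighted to the brightest, such as Tnnt2 and Actc1, with group means of 12.37 to 12.42. These lie near the highest array value of 12.88, so the narrow range does not show a constant level of all 8 markers. The mean of the 8 markers relative to all hearts was -0.007 at ZT0, -0.021 at ZT12 and 0.04 in the knockout. Between the genotypes at ZT12, 6 of the 8 were above 0, with Ryr2, the calcium release channel, at 0.21 (adjusted p = 0.106). The 4 neutrophil markers were all below the median array value. The 9 atrial muscle markers differed between hearts, with summed log2 levels of 12.89 to 13.47 at ZT0, 11.39 to 13.33 at ZT12 and 11.16 to 13.32 in the knockout. This sum rests mainly on Nppa (mean 12.31). Relative to all hearts, the mean of the 9 markers was 0.819 at ZT0, -0.06 at ZT12 and -1.058 in the knockout. It was lowest in knockout hearts 2, 4 and 5 (-2.42, -1.99 and -2.32) and wild-type heart 5 at ZT12 (-2.08). Atrial level and genotype were thus partly linked, and the comparisons with the knockout cannot fully tell them apart. Of the 5 skeletal muscle markers, Myh1, Myh4 and Mylpf were below the median array value. The summed level therefore rests mainly on Acta1 (mean 8.27) and Myl1 (mean 6.26). It was 8.23 to 9.52, 8.61 to 10.23 and 6.63 to 8.52 in the same order. The 5 brown adipocyte markers, of which Elovl3 and Otop1 were dim, also varied. Their mean relative to all hearts was -0.55 to 0.62, -0.55 to 1.01 and -0.55 to 1.56 in that order. It was highest in knockout heart 1 (1.56) and wild-type heart 7 at ZT12 (1.01). Knockout heart 5 stood apart. Its mean over the marker lists of fibroblasts (-0.45, relative to all hearts), smooth muscle (-0.63), macrophages (-0.68) and skeletal muscle (-0.82) was the lowest of the 19 hearts for each of these lists. In whole-heart RNA, fewer cells of a type and less RNA per cell cannot be told apart.

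The members differed little between wild-type hearts at the times of day. In log2 units, the differences (ZT12 minus ZT0) ran from -0.23 for Cox8b to 0.23 for Ndufb11, with a median of -0.014 over the 89 members and -0.004 over all genes. None passed the test: 0 of 89 members had an adjusted p under 0.05 in limma, beside 1.13% of all genes. At an unadjusted p under 0.05 there were 9 members (10.1%), against 11.5% of all genes, and all 9 were lower at ZT12. These 9 were Uqcrc1, Uqcr11, Cox4i1, Cox5b, Cox7b, Cox8a, Cox8b, Ndufb8 and Ndufb10. Among all genes, 1271 of the 2549 at that unadjusted p were lower at ZT12. Groups did not overlap for 1 member, Uqcrc1, against 0.902% of all genes.

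Between knockout and wild type at ZT12 the differences ran from -0.28 for Cox6b2 to 0.41 for Cox6a2, with a median of 0.036 (all genes -0.003). The number of called members was again 0 of 89, beside 0.73% of all genes. An unadjusted p under 0.05 was reached by 10 members (11.2%), 9 of them higher in the knockout, against 10.6% of all genes. Of those 2342 genes, 1186 were higher in the knockout. The groups did not overlap for 3 members, Atp5c1, Ndufa1 and Ndufa8, against 1.4% of all genes. Differences were above 0 for 63 of the 89 members (70.8%, against 49.0% of all genes), and for 54 when the arrays were quantile normalized again. Among genes above the median array value, they were above 0 for 74.4% of 82 members and 53.6% of all 13032. Without knockout heart 5 the count was 66, the median 0.058 and the number of called members 0. The mean of the cardiomyocyte markers given above also lay higher in the knockout, and its part in these values was not tested.

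For knockout hearts at ZT12 against wild-type hearts at ZT0 the median was 0.015 (all genes -0.008), and 0 of 89 members passed, beside 1.34% of all genes. There were 10 members (11.2%) at an unadjusted p under 0.05, 9 higher and 1 lower in the knockout, against 12.6% of all genes. Of those 2793 genes, 1428 were higher in the knockout. The groups did not overlap for 2 members, Atp5c1 and Ndufab1, against 1.72% of all genes. Differences were above 0 for 46 members (51.7%, against 47.8% of all genes), and for 55 when each array was centred on its median. Without knockout heart 5 the median was 0.029 and the number of called members 0. Among genes above the median array value, where 82 of the 89 members lie, an unadjusted p under 0.05 was reached by 9 (11.0%), 9 (11.0%) and 8 (9.76%) of those members in the order of the comparisons. It was reached by 1925 (14.8%), 1700 and 2180 (16.7%) of the 13032 genes at that level.

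The precision of these null counts can be read from the intervals. The 95% interval of the difference lay within 0.5 log2 units (1.41-fold) of 0 for 88 of the 89 members between the wild-type groups, for 86 between the genotypes at ZT12, and for 84 in the third comparison. The same held for 91.8%, 88.3% and 87.7% of all genes. Among the 13032 genes above the median array value it held for 92.2%, 89.4% and 87.9%. For the 82 members there, the shares were 100%, 98.8% and 95.1%. A narrower bound of 0.25 log2 units (1.19-fold) contained the interval of 53, 54 and 52 members. Replicate spread was also smaller than for genes in general. The median SD between hearts was 0.0982, 0.0853 and 0.125 over the members at ZT0, at ZT12 and in the knockout, against 0.169, 0.173 and 0.168 over all genes. Above the median array value it was 0.0939, 0.0791 and 0.117 over the 82 members, against 0.152, 0.15 and 0.154 over all genes there. The brightest members, such as Atp5b (mean 12.006) and Atp5a1 (11.727), lie near the highest array value of 12.88. Their narrow intervals and spread therefore do not show that these transcripts were stable.

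**Figure D1:**
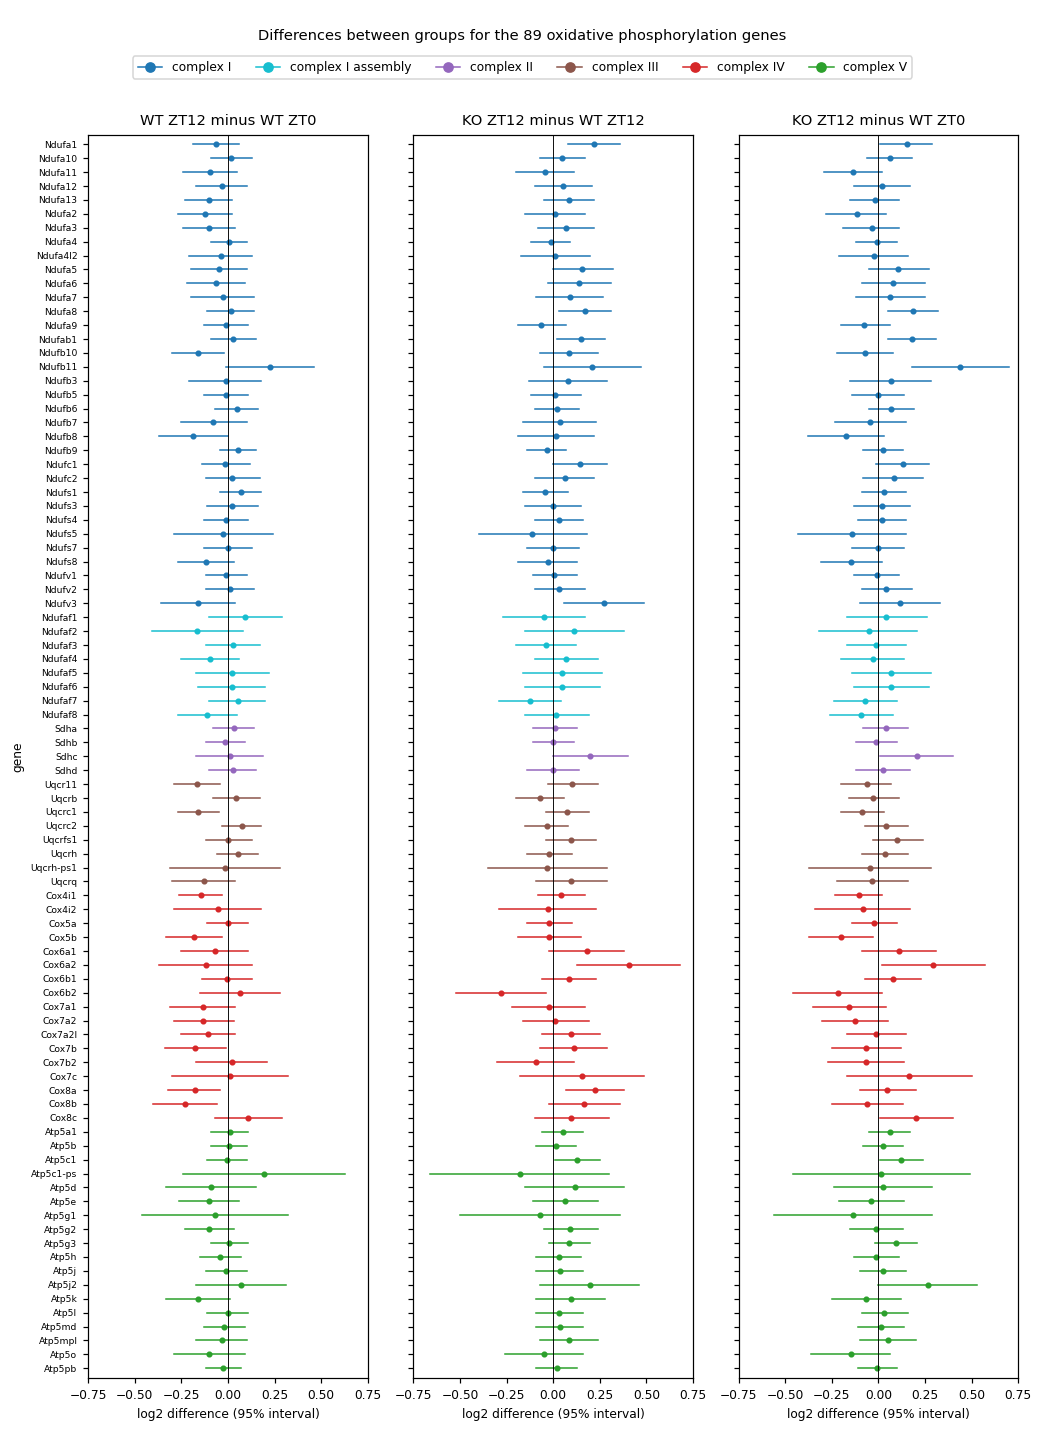
Differences in log2 units, with 95% intervals from limma, for the 89 genes in each of the 3 comparisons, coloured by complex. Points to the right of 0 are higher in the first group named above each panel, and the differences lie between -0.28 and 0.44.

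Complex I was close to 0 in each comparison, with medians over its 34 genes of -0.013 between the wild-type groups, 0.034 between the genotypes at ZT12 and 0.021 for the knockout against ZT0. The 6 measured genes of the catalytic core, Ndufs1, Ndufs3, Ndufs7, Ndufs8, Ndufv1 and Ndufv2, which carry the flavin and the iron-sulfur clusters of the peripheral arm or hold them in place, had medians of 0.005, -0.001 and 0.011. Their differences between the genotypes at ZT12 lay between -0.04 and 0.03. The 26 accessory subunits, which surround the core, had medians of -0.029, 0.064 and 0.042. Between the genotypes at ZT12, 22 of them were above 0 (84.6%, against 49.0% of all genes). Of all genes above the median array value, 53.6% were above 0 there. When the arrays were quantile normalized again, the complex I median in that comparison came to 0.006, with 19 of 34 genes above 0 in place of 25. Ndufa4, whose protein is now placed in complex IV despite its name, and its relative Ndufa4l2 differed by no more than 0.04 in any comparison.

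Ndufa1 encodes a small accessory subunit of the membrane arm of complex I and had the smallest p of the members between the genotypes at ZT12. Its log2 level was 8.51 to 8.80 (median 8.69) at ZT0 and 8.52 to 8.70 (median 8.62) at ZT12, and 8.78, 8.75, 8.81, 8.80 and 9.02 in the knockout hearts. Every knockout heart was above every wild-type heart at ZT12, and knockout hearts 1 and 2 lay inside the range at ZT0. The difference from the wild type at ZT12 was 0.22 (SE 0.0672, 1.16-fold, adjusted p = 0.177), and 0.17 without knockout heart 5, which was the highest.

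Ndufa8 and Ndufab1 were chosen for description after their values were seen. Ndufa8, which encodes an accessory subunit with paired cysteine motifs, was read at 10.39, 10.59, 10.48, 10.44 and 10.52 in the knockout hearts, all above the wild-type range at ZT12 of 10.11 to 10.38 (median 10.35). The range at ZT0 was 10.19 to 10.47 (median 10.27). The difference from the wild type at ZT12 was 0.17 (SE 0.0661, adjusted p = 0.334), and the dimmer probe set of the gene differed by 0.08. Ndufab1, the mitochondrial acyl carrier protein, was at 6.26, 6.39, 6.44, 6.42 and 6.34 in the knockout and at 6.02 to 6.24 (median 6.23) in the wild type at ZT0. These groups did not overlap, and the difference was 0.18 (SE 0.0619, adjusted p = 0.195).

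Ndufb11, an accessory subunit of the membrane arm, had the largest difference of the members in the third comparison and the smallest adjusted p of any member. Its probe set was dim, with a mean of 3.827 beside the median array value of 3.267, and its lowest ZT0 heart was below that median. Its level was 3.24 to 3.84 (median 3.65) at ZT0, 3.52 to 4.09 (median 3.92) at ZT12, and 4.26, 3.84, 3.97, 3.84 and 4.42 in the knockout. The knockout minus wild type at ZT0 was 0.44 (SE 0.124, 1.35-fold, adjusted p = 0.0939), and 0.35 without knockout heart 5. The lowest knockout hearts and the highest ZT0 heart had the same level at 2 decimals. Ndufb10, another membrane arm subunit, was at 7.81 to 8.07 (median 7.91) at ZT0 and 7.70 to 7.91 (median 7.75) at ZT12, with overlapping ranges. That difference was -0.16 (SE 0.0674, adjusted p = 0.358).

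The 8 complex I assembly factors bind intermediates and leave the finished enzyme. They had medians of 0.021, 0.031 and -0.021 in the 3 comparisons, and their largest difference was -0.16, for Ndufaf2 between the wild-type groups. An unadjusted p under 0.05 was reached by 0 of 8 in each comparison, beside 11.5%, 10.6% and 12.6% of all genes. With 8 genes a count of 0 cannot be told apart from such shares.

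Complex II is succinate dehydrogenase, with the flavoprotein Sdha, the iron-sulfur protein Sdhb and the membrane anchors Sdhc and Sdhd. All 4 genes were nearly level between the wild-type groups, with differences from -0.01 to 0.03 and every 95% interval inside 0.25 log2 units of 0. Sdha was at 10.95 to 11.16 (median 11.05) at ZT0, at 11.04 to 11.15 (median 11.08) at ZT12 and at 11.02, 11.12, 10.99, 11.14 and 11.18 in the knockout. Sdhb was at 9.75 to 9.83, at 9.71 to 9.86 and at 9.72, 9.87, 9.74, 9.79 and 9.80 in the same order. Both genes had overlapping groups throughout, and the knockout differed from the wild type at ZT12 by 0.01 for Sdha (95% interval -0.11 to 0.13).

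Sdhc, an anchor that takes part in binding ubiquinone and heme, was the member of complex II furthest from 0. It was at 8.61 to 9.14 (median 8.90) at ZT0, at 8.78 to 9.04 (median 8.94) at ZT12, and at 8.98, 8.93, 9.04, 9.11 and 9.49 in the knockout. Knockout heart 5 was the highest of all hearts and the other 4 lay inside the range at ZT0. The difference between the genotypes at ZT12 was 0.20 (SE 0.0943, adjusted p = 0.463), which came to 0.10 without knockout heart 5 (adjusted p = 0.746). Sdhd was at 9.44, 9.62, 9.44, 9.47 and 9.46 in the knockout, inside the wild-type ranges of 9.30 to 9.57 at ZT0 and 9.32 to 9.61 at ZT12 but for heart 2.

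Complex III had medians of -0.006, 0.028 and -0.03 over its 8 genes, and holds the member whose wild-type groups were apart. Uqcrc1 encodes a core protein on the matrix side of the complex. Its level was 10.35 to 10.45 (median 10.36) at ZT0, 10.17 to 10.27 (median 10.23) at ZT12 and 10.31, 10.39, 10.36, 10.26 and 10.14 in the knockout. All 7 wild-type hearts at ZT12 were below all 7 at ZT0, and the knockout hearts ran from below the ZT12 range into the ZT0 range. The difference between the wild-type groups was -0.16 (SE 0.0515, 95% interval -0.27 to -0.05, 1.12-fold), with an adjusted p of 0.165. It passed in 1 of 29 alternatives, a variance prior that follows intensity (adjusted p = 0.0189).

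Uqcr11, a small subunit of the complex, was read at 6.47 to 6.69 (median 6.61) at ZT0, at 6.34 to 6.50 (median 6.45) at ZT12 and at 6.48, 6.60, 6.70, 6.47 and 6.37 in the knockout. The wild-type ranges overlapped slightly, and the difference was -0.16 (SE 0.0597, adjusted p = 0.262). The other core protein gene, Uqcrc2, differed by 0.08 between the wild-type groups, the opposite sign to Uqcrc1, and Uqcrfs1, the Rieske iron-sulfur protein, by 0.00 (95% interval -0.12 to 0.13). Complex III thus showed no common direction. In the time comparison 4 of 8 genes were above 0, and in the ZT12 genotype comparison also 4 of 8, but not the same 4. Uqcrc1 and Uqcr11 were above 0 only in the genotype comparison.

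The promoter windows of Uqcrc1 and Uqcr11 are shown because these genes had the smallest p of complex III in the time comparison. They are RefSeq windows of GRCm38.p6, from 250 bases before to 50 after the annotated start, at chr9:108936398-108936697 (plus strand) for Uqcrc1 and chr10:80406772-80407071 (minus strand) for Uqcr11. Capitals mark GCATGCGC, a core of the site of NRF1, the nuclear respiratory factor, or its reverse complement, and CCGGAAGT, a core of ETS and GABP sites. Where matches on the strands overlap they form 1 run of capitals.
Uqcrc1: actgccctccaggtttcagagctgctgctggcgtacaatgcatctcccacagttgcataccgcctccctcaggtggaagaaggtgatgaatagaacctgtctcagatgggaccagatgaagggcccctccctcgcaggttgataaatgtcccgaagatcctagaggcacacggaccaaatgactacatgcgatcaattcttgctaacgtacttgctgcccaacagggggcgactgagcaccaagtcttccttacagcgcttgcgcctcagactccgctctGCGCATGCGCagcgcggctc
Uqcr11: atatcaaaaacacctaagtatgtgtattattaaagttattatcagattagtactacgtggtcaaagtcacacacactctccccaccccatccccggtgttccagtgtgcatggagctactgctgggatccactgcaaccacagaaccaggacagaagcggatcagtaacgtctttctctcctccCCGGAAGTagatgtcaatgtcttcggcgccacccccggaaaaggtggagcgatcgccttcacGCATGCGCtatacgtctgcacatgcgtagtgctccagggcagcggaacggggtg

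Each window holds the NRF1 letters toward its 3′ end, and that of Uqcr11 also holds the ETS letters. A RefSeq window was found for 72 of the 89 members, with 77 windows in all because some genes have several starts. On either strand, GCATGCGC stood in 12 member windows (15.6%), against 2.71% of the 32851 windows of all genes. CCGGAAGT was in 5 (6.49%, against 3.89%), AAGATGGCG, a core of YY1 sites, in 7 (9.09%, against 1.4%) and TCAAGGTCA, a core of sites of the estrogen-related receptors, in 2 (2.6%, against 0.423%). The 12 genes with the NRF1 letters spread over complexes I, II, III, IV and V and the assembly factors.

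The letters TAGGTCA, a core of the site that REV-ERB and ROR receptors share, were in 3 member windows (3.9%), against 2.61% of all windows. These stretches are shown because the knockout removes a receptor of that site, with the 7 letters or their reverse complement in capitals. The first is at chr17:24724572-24724594 (minus strand), the second at chr17:56717765-56717787 (plus strand) and the last at chrX:106015667-106015689 (plus strand).
Ndufb10: ttagctggTAGGTCAgggcaaag
Ndufa11: gcgagagtTGACCTAgccggcta
Cox7b: aatttctaTAGGTCAacccctaa

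These 3 genes differed between the genotypes at ZT12 by 0.09 (Ndufb10, adjusted p = 0.734), -0.04 (Ndufa11) and 0.11 (Cox7b, adjusted p = 0.707), with every interval including 0. Without knockout heart 5 the value for Ndufb10 was 0.15 (adjusted p = 0.475). A match of letters in a window is a description and does not show binding.

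Complex IV, cytochrome c oxidase, was the complex whose median lay furthest from 0 in each comparison. Over its 17 genes the median was -0.106 between the wild-type groups, with 12 genes below 0, and it stayed between -0.126 and -0.072 in 29 alternatives. The knockout minus wild type at ZT12 had a median of 0.083, with 11 genes above 0, and a range of 0.037 to 0.094 over the alternatives. Against the wild type at ZT0 the knockout median was -0.063, which came to -0.005 with the mean of the atrial markers as a covariate. None of the 17 genes passed in any comparison, beside 1.13%, 0.73% and 1.34% of all genes. Between the wild-type groups 5 of them (29.4%, against 11.5% of all genes), all lower at ZT12, had an unadjusted p under 0.05. In each of the other comparisons there were 3 such genes (17.6%, against 10.6% and 12.6% of all genes), 2 higher and 1 lower in the knockout. With the same covariate the wild-type median was -0.1, and without the hearts lowest in atrial markers it was -0.096.

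Single hearts overlapped. The median of the 17 genes in a heart, relative to all hearts, was -0.082 to 0.145 (median 0.036) at ZT0 and -0.109 to 0.011 (median -0.074) at ZT12. In the knockout hearts it was -0.018, -0.007, 0.073, -0.009 and -0.005. At ZT0, hearts 2, 3, 4 and 5 were above every ZT12 heart, and hearts 1, 6 and 7 lay within the ZT12 range.

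**Figure D2:**
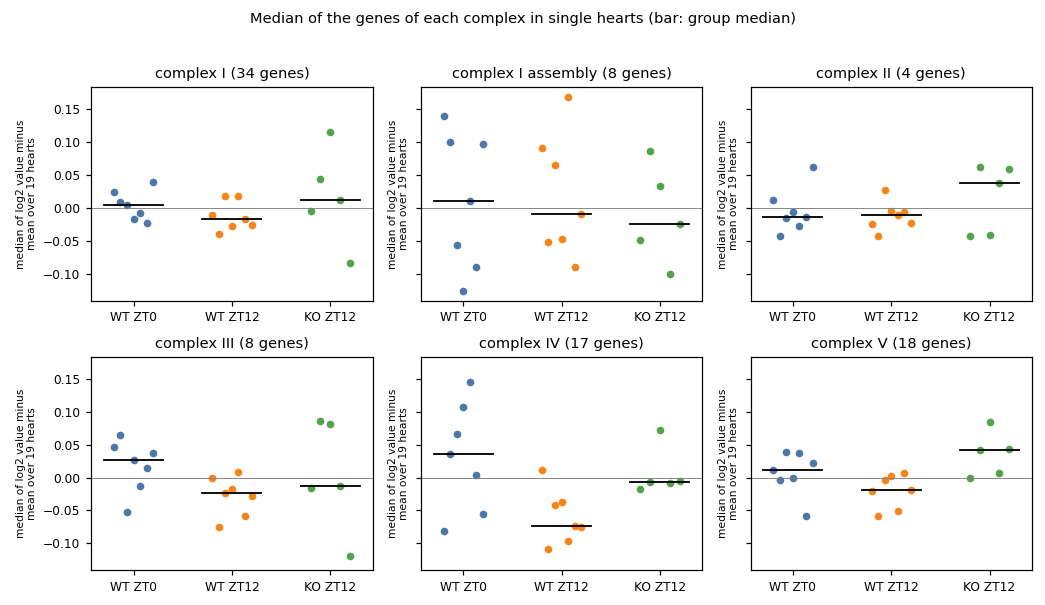
Median over the genes of each complex in every heart, as log2 value minus the mean of the gene over the 19 hearts. Points are hearts and bars group medians. The groups overlap in every panel, and for complex IV the bars lie at 0.036, -0.074 and -0.007.

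Over the 9 subunits of complex IV found in all tissues the median was -0.135 between the wild-type groups, with 7 genes below 0, and 0.083 between the genotypes at ZT12. The 3 isoforms typical of heart and skeletal muscle, Cox6a2, Cox7a1 and Cox8b, had medians of -0.135, with 3 of 3 below 0, and 0.166. Cox4i1, the usual form of subunit 4, which regulates the enzyme, was at 9.89 to 10.14 (median 10.08) at ZT0 and at 9.85 to 9.96 (median 9.90) at ZT12. In the knockout it was at 9.84, 10.06, 9.98, 9.97 and 9.89. Of the ZT0 hearts, 6 of 7 were above the ZT12 range, and the difference was -0.15 (SE 0.0548, adjusted p = 0.281). Its relative Cox4i2, a form induced by low oxygen, differed by -0.05 with a wider interval (-0.29 to 0.18).

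Cox5b, a zinc-binding subunit, was at 10.05 to 10.46 (median 10.26) at ZT0, at 10.02 to 10.21 (median 10.08) at ZT12 and at 10.20, 10.14, 10.20, 9.93 and 9.87 in the knockout. The knockout hearts spanned the ZT12 range and went below it. The difference was -0.18 (SE 0.0742, adjusted p = 0.343) between the wild-type groups and -0.02 between the genotypes at ZT12. The dimmer probe set of Cox5b gave -0.12 and 0.11 in these comparisons, the latter opposite in sign. Cox7b, a small membrane subunit chosen here for its promoter letters, differed by -0.18 between the wild-type groups (SE 0.0797, adjusted p = 0.392). Its dimmer probe set gave 0.36 there, so the probe sets of this gene disagreed in sign.

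Cox8a, the usual form of the smallest subunit, was at 8.17 to 8.54 (median 8.38) at ZT0, at 8.09 to 8.32 (median 8.17) at ZT12, and at 8.50, 8.32, 8.40, 8.35 and 8.57 in the knockout. The knockout hearts were at or above the top of the ZT12 range and inside or just above the ZT0 range. The difference was -0.18 (SE 0.0664, adjusted p = 0.28) between the wild-type groups and 0.23 (SE 0.0727, 1.17-fold, adjusted p = 0.205) between the genotypes at ZT12.

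Cox8b, the muscle form of the smallest subunit, had the lowest difference of the members between the wild-type groups. It was at 10.19 to 10.74 (median 10.43) at ZT0, at 10.07 to 10.24 (median 10.21) at ZT12 and at 10.26, 10.47, 10.51, 10.29 and 10.16 in the knockout. The ZT0 hearts were spread widely and the lowest of them lay inside the ZT12 range. The difference was -0.23 (SE 0.0832, 95% interval -0.40 to -0.06, adjusted p = 0.262), and between the genotypes at ZT12 it was 0.17 (SE 0.0912, adjusted p = 0.551). Cox7a1 differed by -0.14 between the wild-type groups and -0.02 between the genotypes, and its ubiquitous partner Cox7a2 by -0.13 and 0.01.

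Cox6a2, the muscle form of subunit 6a, had the largest difference between the genotypes at ZT12. It was at 10.43 to 11.01 (median 10.89) at ZT0, at 10.50 to 11.05 (median 10.64) at ZT12, and at 11.13, 10.81, 10.95, 10.96 and 11.69 in the knockout. Hearts 1 and 5 of the knockout were above all wild-type hearts and the other 3 were inside the wild-type ranges. The difference was 0.41 (SE 0.132, 95% interval 0.13 to 0.68, 1.33-fold, adjusted p = 0.208), and 0.26 without knockout heart 5 (adjusted p = 0.434). The summed skeletal muscle markers were lower in every knockout heart than in every wild-type heart at ZT12. That sum rests mainly on Acta1, which differed by -1.76 between these groups, and on Myl1. Of the 5 markers 4 were below 0, and Myh4, which was dim, differed by 0.05. The sum therefore does not measure the amount of skeletal muscle, and its part in the Cox6a2 value was not tested. Cox6a1, the partner of Cox6a2, differed by 0.18 (SE 0.0948, adjusted p = 0.526).

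**Figure D3:**
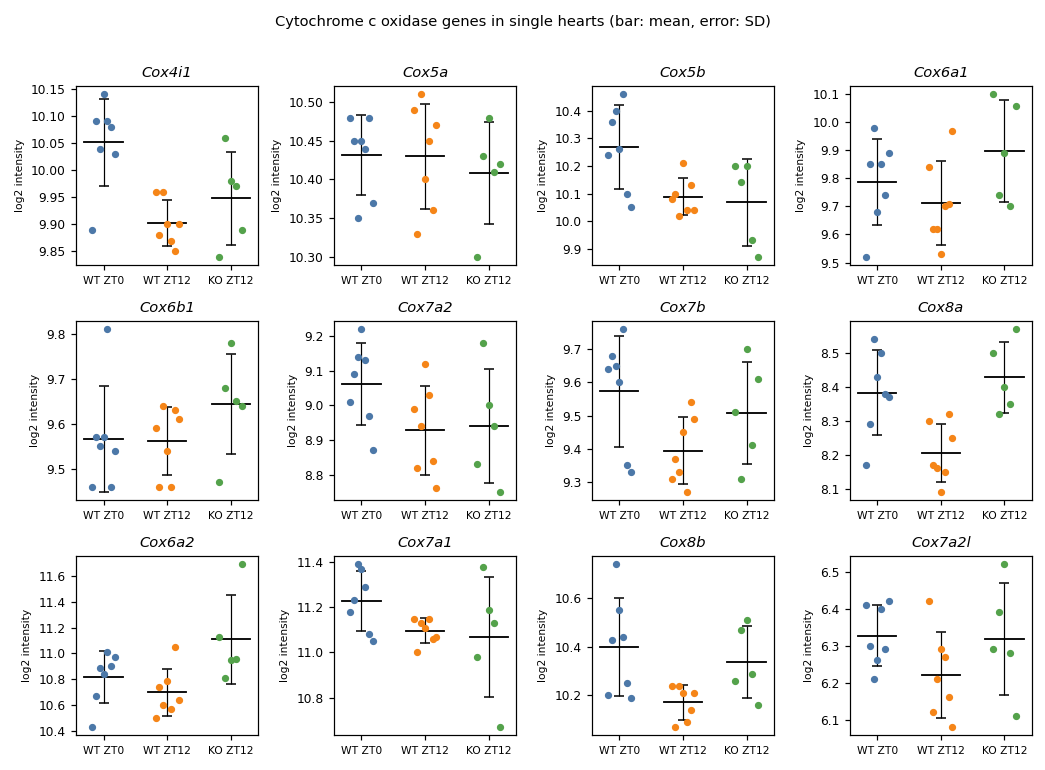
Log2 intensity of 12 complex IV genes in single hearts, by group, with the mean and SD. The scales differ between panels. Cox8a and Cox4i1 are mostly lower at ZT12 in the wild type, and knockout heart 5 at 11.69 sets the upper end of Cox6a2.

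The other isoforms of complex IV were dim. Cox6b2, Cox7b2 and Cox8c, known from testis, were below the median array value. Cox6b2 differed by -0.28 between the genotypes at ZT12 (SE 0.116, adjusted p = 0.373), at levels of 2.72 to 3.25 in the knockout and 3.06 to 3.67 in the wild type. Cox7a2l, which was brighter (mean 6.285), differed by -0.11 between the wild-type groups and 0.09 between the genotypes at ZT12.

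Complex V, the ATP synthase, had medians of -0.023, 0.043 and 0.019 over 18 genes. The 5 genes of the catalytic head and central stalk, Atp5a1, Atp5b, Atp5c1, Atp5d and Atp5e, had a median of -0.007 between the wild-type groups, and all 5 were above 0 between the genotypes at ZT12, by 0.02 to 0.13. The dimmer probe set of Atp5e differed by -0.13 there, opposite in sign to the 0.06 of the one used. The ring subunit genes Atp5g1, Atp5g2 and Atp5g3, whose mature proteins are identical, had a median of -0.068 between the wild-type groups. The 4 peripheral stalk genes lay between -0.10 and -0.01 there. For Atp5h, 1 of these, the dimmer probe set gave 0.08 there. Between the genotypes at ZT12 it gave 0.44, against 0.03 for the one used. The 5 other membrane subunits had medians of -0.021, 0.085 and 0.031.

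Atp5c1, the gamma subunit that turns in the head, was the member of complex V whose groups did not overlap. It was at 5.03 to 5.21 (median 5.15) at ZT0, at 5.02 to 5.17 (median 5.16) at ZT12, and at 5.24, 5.25, 5.24, 5.22 and 5.29 in the knockout. Every knockout heart was above every wild-type heart of both times, by a narrow margin. The difference was 0.13 (SE 0.056, 1.09-fold, adjusted p = 0.408) at ZT12 and 0.12 (SE 0.056, adjusted p = 0.367) against ZT0. Atp5k, the subunit e gene, which takes part in dimers of the enzyme, was at 7.50 to 7.88 (median 7.74) at ZT0 and 7.50 to 7.64 (median 7.58) at ZT12, a difference of -0.16 (SE 0.0816, adjusted p = 0.462). Its knockout values of 7.74, 7.85, 7.88, 7.57 and 7.29 spanned the wild-type ranges, with heart 5 below them.

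**Figure D4:**
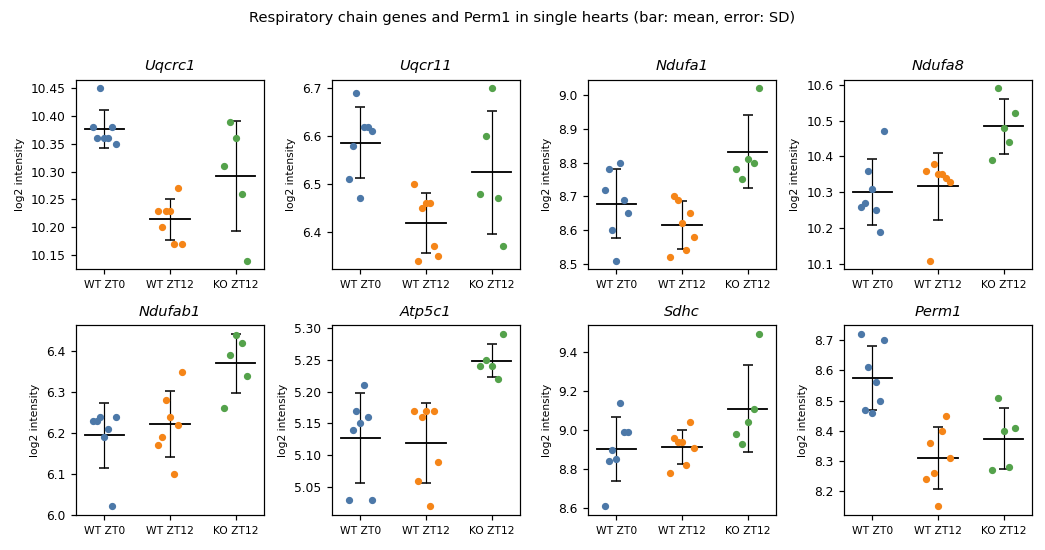
Log2 intensity in single hearts of 7 members from complexes I, II, III and V and of Perm1, with the mean and SD by group. The scales differ between panels. The knockout hearts of Atp5c1, at 5.22 to 5.29, lie above all wild-type hearts, and the wild-type groups of Uqcrc1 and Perm1 do not overlap.

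Knockout heart 5 held an extreme position for many members. It was the highest or lowest of its group for 56 of the 89 members, the highest for 19 and the lowest for 37, and next came knockout heart 3 with 41. It was, for example, the highest for Sdha, Ndufa1, Ndufb11, Sdhc, Cox6a2, Cox8a and Atp5c1 and the lowest for Uqcrc1, Uqcr11, Ndufb10, Cox5b, Cox7a1, Cox8b and Atp5k. Its median over complex I was -0.083 and over complex III -0.12, the lowest of all hearts for both, while its complex V median was 0.044. Knockout heart 3 had the highest median over all members, 0.087, with 0.116 for complex I. The cause of these differences between hearts was not tested.

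Genes around the respiratory chain were also read from fixed lists. Of 34 measured assembly factors outside the rule, such as those for copper and heme insertion, 0 passed in any comparison, with medians of 0.009, 0.031 and 0.046. Cox20, an assembly factor for subunit 2 of complex IV, was at 8.96, 8.87, 9.13, 8.85 and 8.90 in the knockout, above all wild-type hearts at ZT12 (8.59 to 8.79). That difference was 0.25 (SE 0.0773, adjusted p = 0.186). The 10 measured subunits encoded by mitochondrial DNA had medians of -0.031, -0.001 and -0.032, and 0 passed. Group means of 9 of them were 11.93 to 12.82, close to the highest array value of 12.88, so small differences there do not show that these transcripts were stable. ND4L, a membrane subunit of complex I, differed by -0.17 between the wild-type groups (SE 0.0658, adjusted p = 0.296). ND6, another complex I subunit, outside those 9, differed by 0.26 there (SE 0.178, adjusted p = 0.629) and by -0.30 between the genotypes at ZT12 (SE 0.195, adjusted p = 0.629), or -0.50 without knockout heart 5 (adjusted p = 0.291). Of 8 measured electron carriers and other subunits, a list that also holds the member Atp5mpl, 0 passed. Cycs, which encodes cytochrome c, differed by no more than 0.02 in any comparison.

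Among 16 measured regulators of respiratory genes, 1 passed, between the wild-type groups, where 1.13% of all genes passed. Perm1, a muscle regulator that acts with PGC-1 and estrogen-related receptors, fell by 0.26 on the log2 scale from ZT0 to ZT12 (SE 0.0645, 1.2-fold, adjusted p = 0.0481). It was at 8.46 to 8.72 (median 8.56) at ZT0, at 8.15 to 8.45 (median 8.31) at ZT12 and at 8.27, 8.51, 8.40, 8.28 and 8.41 in the knockout. The wild-type groups did not overlap, and the knockout minus wild type at ZT12 was 0.07 (adjusted p = 0.803). The call was near the threshold: it passed in 8 of 29 alternatives (adjusted p 0.00906 to 0.104). It was lost when any 1 of 15 hearts was left out, and held without heart 4 at ZT0, heart 5 or 6 at ZT12 or heart 2 of the knockout.

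Esrra, the gene of estrogen-related receptor alpha, singled out after its values were seen, was at 6.10 to 6.35 (median 6.22) at ZT0, 5.70 to 6.27 (median 5.96) at ZT12 and 6.04 to 6.45 (median 6.29) in the knockout. It differed by -0.26 between the wild-type groups (SE 0.0911, adjusted p = 0.229) and by 0.29 between the genotypes at ZT12 (SE 0.0998, adjusted p = 0.237). Nrip1, a corepressor of oxidative genes, was at 6.45, 6.34, 6.28, 6.38 and 6.15 in the knockout and at 6.47 to 6.73 (median 6.60) in the wild type at ZT12. The groups did not overlap, and the difference was -0.27 (SE 0.0717, adjusted p = 0.0904), or -0.23 without knockout heart 5. It passed in 3 of 29 alternatives (adjusted p 0.039 to 0.586). Ppargc1a, the PGC-1 alpha gene, differed by 0.05 and 0.07 in the same comparisons (adjusted p = 0.891 and 0.867).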

How the data were processed

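Total RNA (300 ng per heart) from 19 hearts was read on Affymetrix whole-transcript arrays. The deposited values are log2 intensities that the authors summarised with RMA, per the submitters' processing notes. RMA corrects background, quantile normalizes and summarises probes, so levels of different probe sets are not comparable. The RMA version is not given in the sources used here. Array medians were 3.245 to 3.32 and correlations between arrays 0.972 to 0.985.

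Of 41345 probe sets, 23521 list 1 gene in the platform annotation, 1814 list several and 16010 list none. The brightest single-gene probe set stood for each of 22180 genes. limma 3.58.1 in R 4.3.3 fitted 1 mean per group over all arrays, with eBayes without trend, two-sided tests, Benjamini-Hochberg adjustment over all genes and calls at an adjusted p under 0.05. The fit was tested on simulated data. Replicates are labelled biological, so arrays were taken as separate hearts, and their number limits the precision.

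Named genes were, per complex and comparison, the member of smallest p among those above the median array value of 3.267, all called members, complex II, the Cox4, Cox6a, Cox7a and Cox8 isoform pairs, the called gene or gene of smallest p of each related list, and Nr1d1. Other genes named were chosen after their values were seen. Members and lists were chosen with earlier results of these data known, and gene lists came from general knowledge. Alternatives covered normalization, filtering, probe sets, variance prior, replicate block, atrial covariate and each array left out. Leaving out the arrays lowest in atrial or highest in brown adipocyte markers was added after seeing the data. The former were wild-type heart 5 at ZT12 and knockout hearts 2, 4 and 5, which leaves only knockout hearts 1 and 3. The latter were wild-type heart 7 at ZT12 and knockout heart 1.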

Additional observations from a re-analysis of the deposited data

Results flagged for a closer look

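Of 93 groups of values (31 genes in 3 groups), 8 held a heart whose gap to the next exceeded the limit of Dixon's test. Chance alone gives about 1 in 20 groups. Wild-type heart 3 at ZT0 was at 10.45 for Uqcrc1, with the other hearts at 10.35 to 10.38. Knockout heart 5 was at 9.02 for Ndufa1 (others 8.75 to 8.81) and at 6.53 for Cox15, a heme synthesis gene (others 6.18 to 6.26). Wild-type heart 1 at ZT0 was at 3.24 for Ndufb11 (others 3.60 to 3.84). Knockout heart 2 was at 9.62 for Sdhd (others 9.44 to 9.47). Wild-type heart 1 at ZT12 was at 9.72 for ND6, a complex I subunit of the mitochondrial genome (others 10.27 to 10.53). For Etfb, a subunit of the electron transfer flavoprotein, wild-type heart 7 at ZT0 was at 9.56 (others 9.37 to 9.43) and wild-type heart 6 at ZT12 at 9.19 (others 9.29 to 9.36).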

How the results depend on the processing

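In each of 29 alternatives the number of called members was 0 in all comparisons, with 1 exception: with a variance prior that follows intensity, 1 member, Uqcrc1, passed between the wild-type groups. The median over members ranged from -0.027 to -0.003 between the wild-type groups, from 0.02 to 0.058 between the genotypes at ZT12 and from -0.005 to 0.032 between the knockout and the wild type at ZT0. Of 2697 values of single named genes, 2560 kept direction and side of the threshold, 101 changed sign without being called, 32 lost a call, 4 gained one and 0 changed sign while called. Calls were gained for Uqcrc1 between the wild-type groups (1 alternative) and Nrip1 between the genotypes at ZT12 (3 alternatives). Calls were lost for Perm1 and for Nr1d1, whose difference of 0.59 between the wild-type groups (adjusted p = 0.0289) passed in 18 of 29 alternatives. With the replicate number as a replicate block, 0 members were called and the medians were -0.014, 0.04 and 0.005 in the order of the comparisons above. Deviations of hearts with the same number correlated at -0.072 to 0.074 over all genes. That shows no strong shared deviation, but it cannot exclude a pairing that affects a part of the genes. The labels do not say whether the numbers pair the hearts. The number of arrays limits what could be called: the 95% interval reached past 0.25 log2 units from 0 for all but 53, 54 and 52 of the 89 members, and differences of that size could not be judged for those others.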
